A study of Drosophila melanogaster with 6 samples.

Results

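The Drosomycin family of Drosophila melanogaster was examined in whole embryos that lack trh and in wild type embryos. Its members were the probe sets (groups of short probes for 1 transcript) whose platform gene symbol is Drs or begins with Drsl. This gave 7 probe sets, 1 for each of 7 genes, among 18769 probe sets that are not controls and 11982 genes. Total RNA of 3 wild type and 3 trh null mutant samples was hybridised to 6 Affymetrix arrays of 1 colour (type Drosophila Genome 2.0), and the deposited values are log2 signals. Embryos were collected for 8 h and aged for another 11 h, which the labels place at stages 11 to 16, although the sample description of the wild type gives stage 17 as the last. Embryos of both genotypes went through a biosorter, and mutants were picked by the missing GFP of the balancer. The trh allele is not given in the sources used here, and the mutation was carried by the whole embryo, so no value belongs to 1 tissue.

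Drosomycin is a small secreted antifungal peptide with several disulfide bridges, and Drsl1 to Drsl6 encode peptides related to it. In the fat body Drs is a standard readout of Toll signalling, while in the larval tracheal epithelium, which meets air and microbes directly, its local induction depends on the Imd pathway. Some drosomycin-like genes of the adult gut respond to JAK-STAT signalling. Without trh (trachealess), a bHLH-PAS transcription factor gene, tracheal cells do not form tubes. The series title puts the question of which tracheal genes need it.

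Drsl5 was the only member whose mean signal differed by more than 1 log2 unit between the genotypes. The family was chosen because the low signal of Drsl5 in trh null embryos was already known, so the members' differences in this contrast are given as descriptions, without a test. On the log2 scale Drsl5 read 11.97, 12.63 and 11.68 on the wild type arrays of replicates 1, 2 and 3, and 6.97, 7.35 and 7.19 on the trh null arrays. All wild type arrays were high and all trh null arrays low, with a wide gap between them. The means were 12.09 ± 0.48 and 7.17 ± 0.19 (SD, n = 3 arrays each), a difference of -4.92 (SE 0.25, 95% interval -5.52 to -4.33), which is 30.4-fold lower in trh null embryos. Among all 18769 probe sets this difference was number 8 from the lowest. In RNA from whole embryos, fewer cells of a type and less RNA per cell cannot be told apart. The sample descriptions end at stage 17 for wild type and at stage 16 for trh null embryos. Any such difference in stage cannot be told apart from genotype here.

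Drs, the founding gene of the family, lay in the opposite direction. It read 5.88, 6.11 and 6.01 on the wild type arrays and 6.88, 6.75 and 6.74 on the trh null arrays. Every trh null array was above every wild type array, though both groups were in the middle range of the array. The difference was 0.79 on the log2 scale (SE 0.09, 95% interval 0.57 to 1.02), or 1.73-fold higher in trh null embryos.

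Drsl6, which encodes another Drosomycin-related peptide, was slightly lower in trh null embryos. Its log2 signals were 5.31, 5.52 and 5.41 in wild type and 4.98, 4.91 and 5.04 in trh null embryos. The groups did not overlap, and the difference was -0.44 (SE 0.09, 1.35-fold lower). For Drsl2 the wild type arrays gave 5.09, 5.50 and 5.07 and the trh null arrays 4.90, 4.96 and 4.95. The groups were apart by little, with wild type replicate 2 well above the other two wild type arrays, and the difference was -0.28 (SE 0.13, 95% interval -0.59 to 0.03).

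The remaining 3 members, Drsl1, Drsl3 and Drsl4, had overlapping groups. Drsl3 read 5.43, 5.34 and 5.06 in wild type and 5.07, 5.07 and 5.02 in trh null embryos (difference -0.22, SE 0.11), so that its lowest wild type array lay among the trh null arrays. Drsl1 read 5.49, 5.82 and 5.74 in wild type and 5.47, 5.64 and 5.63 in trh null embryos (difference -0.11, SE 0.11). Drsl4 read 7.65, 8.16 and 7.62 in wild type and 7.64, 7.81 and 7.62 in trh null embryos. For Drsl4 only wild type replicate 2 stood out, and the difference was -0.12 (SE 0.16, 95% interval -0.51 to 0.26), an interval that holds changes in either direction.

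**Figure D1:**
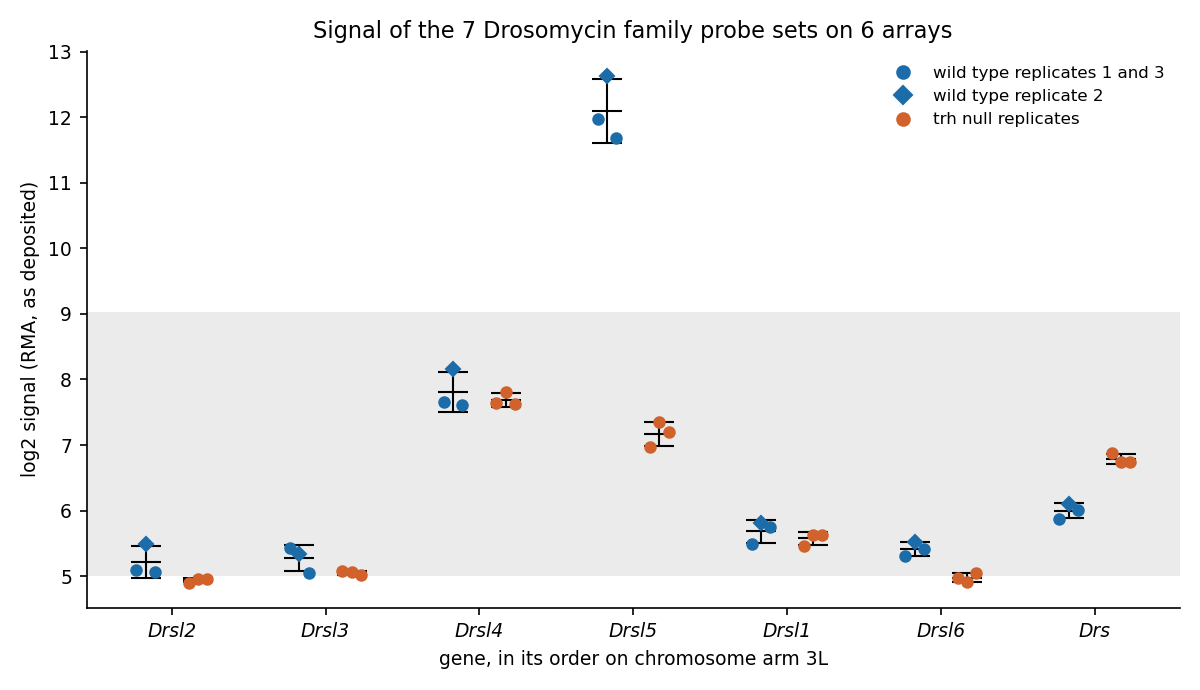
Log2 signal of the 7 Drosomycin family probe sets on each array, in the order of the genes on chromosome arm 3L; points are arrays (diamond for wild type replicate 2), bars are the mean and SD of 3 arrays, and the grey band spans the first to the third quartile of all probe sets, averaged over the arrays. Drsl5 lies at 11.68 or more in wild type and at 7.35 or less in trh null embryos, Drs is higher in trh null embryos, and the other genes lie close together in both genotypes.

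Across the family, 6 of 7 means were lower and 1 was higher in trh null embryos. The median log2 difference was -0.22, against -0.01 over all probe sets, and leaving Drsl5 aside the sizes ran from 0.11 to 0.79. The arrays of the genotypes did not overlap for 4 of 7 members. Of all probe sets 36.0% did not overlap, and since the family was chosen on this contrast nothing is read from its count. All trh null arrays lay below for Drsl2, Drsl5 and Drsl6 (18.3% of all probe sets) and above for Drs (17.7%). The 4 members Drsl1, Drsl2, Drsl3 and Drsl6 stayed between 4.90 and 5.82 on all 6 arrays, where the first quartile of an array was 4.99 to 5.08 and its median 6.16 to 6.22. The deposited table holds no detection calls, and near the background of an array a log2 difference understates a change. Whether probes of these related genes take up each other's RNA was not tested, since probe sequences were not used here.

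Among the 6 arrays, that of wild type replicate 2 was the most unlike its group. The root mean square distance of an array to the mean of the other two of its genotype was 0.49 for it, 0.29 and 0.34 for wild type replicates 1 and 3, and 0.14 to 0.22 for the trh null arrays (log2 units over all probe sets). It gave the highest of the 3 wild type signals for 6 of 7 members, all but Drsl3, and for 50.3% of all probe sets. Without it, the difference was -4.66 (SE 0.14) for Drsl5, 0.85 (SE 0.08) for Drs and -0.38 (SE 0.08) for Drsl6. The differences of Drsl2, Drsl3 and Drsl1 were then -0.14, -0.19 and -0.04, and that of Drsl4 was 0.05 in place of -0.12. The actin control probe sets, which sit at different distances from the 3' end, were brighter at the 3' end than at the 5' end by 1.36 ± 0.09 log2 units in wild type and by 0.76 ± 0.03 in trh null embryos (SD, n = 3 arrays), and the part of this in the members' values was not tested. Genes outside the family, each taken by the brightest probe set that names it alone, were tested with limma's moderated test over all probe sets (Benjamini-Hochberg adjustment, threshold 0.05), which called 14.1% of 11982 genes, and "rose" and "fell" mark genes that passed it. Of 13 measured tracheal marker genes 3 fell and 4 rose in trh null embryos, and their summed linear signal was 28726 to 36291 per array in wild type and 17624 to 20007 in trh null embryos. Most of the lower sum came from Gasp and Osi19, the 2 markers that lost most linear signal. Without these the other 11 markers summed to 16000.0 to 19197 in wild type and 14817 to 17163 in trh null embryos, ranges that overlap. Since the 2 were picked for their loss, a smaller gap was bound to follow. A linear sum also weighs bright genes most, so it does not show how each other marker changed. On the log2 scale Osi19, a membrane protein gene of the Osiris family, fell by 6.25, Gasp, a chitin-binding protein gene, by 1.53 and btl, the FGF receptor gene of tracheal cells, by 1.38 (limma adjusted p = 0.00103, 0.00434 and 0.00153). The genes that rose, named after their values were seen, were dpy (1.36), trn (0.80), tnc (0.79) and dysf (0.54), with limma adjusted p = 0.0261, 0.0368, 0.00642 and 0.0250. Another probe set of dysf fell by 0.37 (limma adjusted p = 0.0322), and the remaining one differed by -0.02. Averaged over its probe sets dysf differed by 0.05 and did not pass (limma adjusted p = 0.761). The other probe set of tnc differed by 0.07 (limma adjusted p = 0.664). In each fit without 1 of the trh null arrays dpy, trn and dysf no longer passed (limma adjusted p between 0.0730 and 0.147), nor did dpy (0.0602) and dysf (0.0530) without wild type replicate 1 or trn (0.0909) without wild type replicate 3. Of 16 hemocyte markers 6 rose and 0 fell (1 lower at an unadjusted p under 0.05), with summed signals of 22278 to 26907 in wild type and 24405 to 25407 in trh null embryos. Of the other lists, 1 of 8 fat body markers fell, and of 10 epidermal markers 2 rose and 2 fell. The fat body marker was svp (-3.50), whose other probe sets differed by 0.04 and 0.79 (limma adjusted p = 0.831 and 0.00418). Among salivary gland markers 3 of 7 rose, and among gut markers 1 of 8. That gut marker, hkb, is also 1 of the 3 in the salivary gland list. The part of these tissues in the members' values was not tested.

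The 7 genes lie near each other on chromosome arm 3L, the arm that also carries trh. Their order was taken from the RefSeq gene table, counting only genes that a probe set names alone. Genes without such a probe set may lie between them. In this order Drsl2, Drsl3, Drsl4 and Drsl5 follow each other, and a block of other genes comes next. Drsl1 and Drsl6 come after it, then kst, which encodes a heavy spectrin, and then Drs. Among measured genes Drsl5, with its 30.4-fold difference, thus stands next to Drsl4, whose difference did not exceed its error. To see whether genes around the family moved as well, the 6 measured genes between its first and last member and the 8 measured genes on either side were compared with the same test.

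Of these 22 neighbours 1 fell, 1 rose and 20 did not pass. The share called was 9.09%, against 14.1% of all genes, and the neighbours' median log2 difference was 0.03, against 0.00 over all genes. The one that fell was CG12009, an uncharacterised gene separated from Drsl2 by CG14968 and ZnT63C. Its signal was 11.78, 10.10 and 11.57 in wild type and 5.78, 6.76 and 5.94 in trh null embryos. All wild type arrays were far above all trh null arrays, and the difference of -4.99 (SE 0.49, limma adjusted p = 0.00241), 31.7-fold, was close in size to that of Drsl5. CG14968 and ZnT63C, a zinc transporter gene, lay between CG12009 and the first Drosomycin-like genes and had differences of -0.21 and 0.03 (limma adjusted p = 0.394 and 0.928).

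PIG-C, a gene of GPI anchor synthesis and the measured gene next to Drsl5 on its other side, read 0.51 higher in trh null embryos (SE 0.17) but did not pass (limma adjusted p = 0.116). Beyond it Strip, Gtpx, CG14961 and CG14969 had differences from -0.10 to 0.18, and kst had 0.95 with a wide error (SE 0.51, limma adjusted p = 0.294). Ythdc1, the measured gene next to Drs, encodes a reader of methylated adenosine in RNA. It rose by 0.76, from 7.52 ± 0.37 to 8.28 ± 0.03 (SD, n = 3 arrays, limma adjusted p = 0.0450). Drs and Ythdc1 were thus both higher by a similar amount, 0.79 and 0.76. Ythdc1 no longer passed in any fit without 1 of the trh null arrays (limma adjusted p between 0.145 and 0.160), nor in those without wild type replicate 1 (0.110) or 3 (0.0616), nor with quantile normalization (0.0781) or median centring (0.0502).

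On the far side of Drs, CG12010, CG12012, Ids, sty, eIF5B, armi and CycJ had differences from -0.25 to 0.49 by their brightest probe sets, none of which passed. For sty, the Sprouty gene, the brightest probe set differed by -0.25, while its other probe set rose by 0.58, from 10.05 to 10.63 in mean signal, and did pass (limma adjusted p = 0.0127). On the far side of Drsl2, ckd, CG34265, CG12017, CG14960 and CG12078 had differences of -0.77, -0.33, -0.38, -0.18 and 0.03, and none passed. Without wild type replicate 2, 4 neighbours fell and 2 rose: ckd (-1.22), CG34265 (-0.40) and CG12017 (-0.47) then passed beside CG12009 (-5.51), and PIG-C (0.68) beside Ythdc1 (0.95). With any other single array left out only CG12009 passed.

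**Figure D2:**
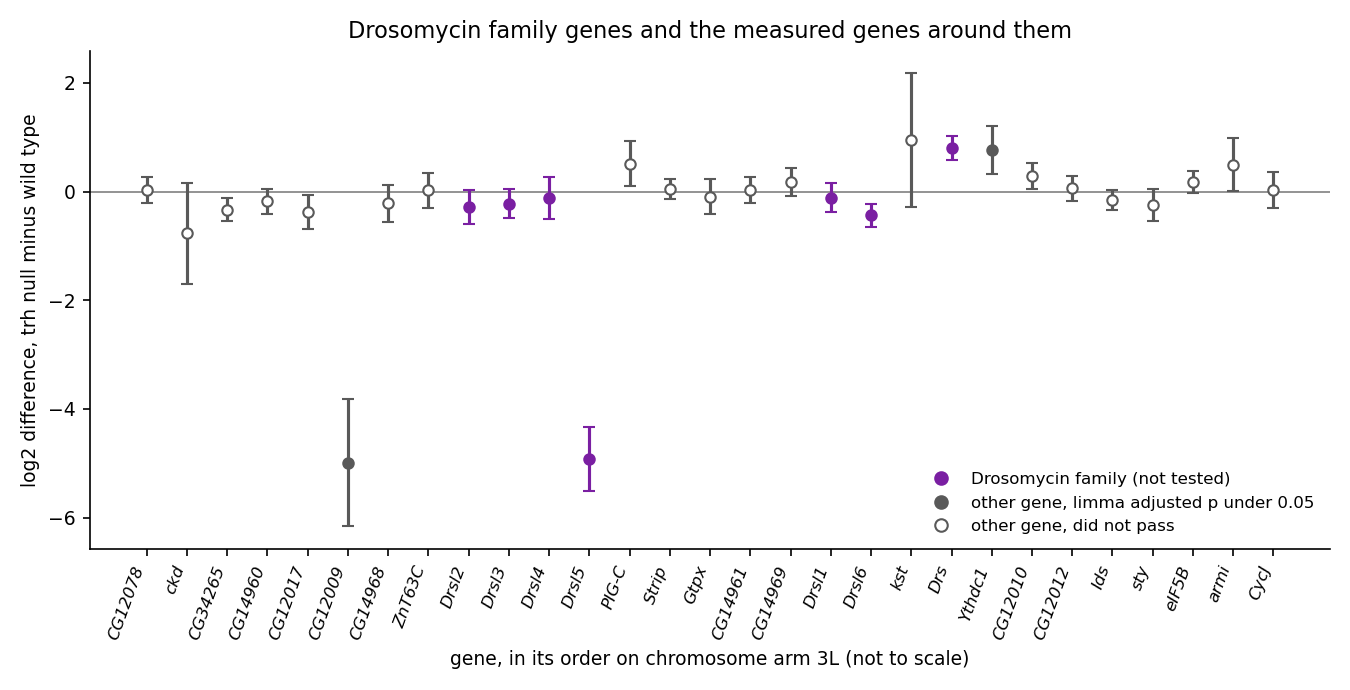
Log2 difference between trh null and wild type embryos, with its 95% interval from limma, for the 7 Drosomycin family genes and 22 measured neighbours in their order along chromosome arm 3L (spacing not to scale). Drsl5 and CG12009 stand near -5 while the genes between and beside them lie within 1 unit of 0.

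The named genes whose signals followed Drsl5 most closely over the 6 arrays were found by likeness of pattern. Genes with a CG or CR number or a symbol that begins with lncRNA or asRNA were left out. CG12009 was therefore not compared, and such genes may lie closer. For each of the 6674 named genes the 6 log2 values, less their mean, were set against those of Drsl5. The root mean square difference was taken as the distance. The nearest was tpr, a serine protease gene, at a distance of 0.31. It read 10.04, 10.42 and 10.11 in wild type and 5.59, 5.96 and 5.75 in trh null embryos, so wild type replicate 2 was its highest array too, as it was for Drsl5. Next were apn, a gene for a membrane protein of tracheal tubes (distance 0.37), Cht5, a chitinase gene (0.37), and ry, the xanthine dehydrogenase gene (0.53). Wild type replicate 2 was the highest array for apn, at 11.67, for Cht5, at 10.22, and for ry, at 8.63.

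Behind them came 3 genes of the Osiris family of membrane proteins, Osi9 (0.59), Osi15 (0.70) and Osi18 (0.75), and svp, which encodes a nuclear receptor (0.79). For Osi9, Osi15 and Osi18 wild type replicate 2 was instead the lowest wild type array, at 11.79, 13.19 and 12.31. The other probe sets of svp did not share this pattern: one had mean signals of 5.32 and 5.36, and the other was higher in trh null embryos (3.91 and 4.70). The measure rests mostly on the size of the difference between genotypes, so it is a description of 6 arrays. It also uses the value of wild type replicate 2, so sharing that array as the highest is partly built into the choice of genes. That array was the highest of the wild type for 50.3% of all probe sets. For Drs, the only other member whose range exceeded 1 log2 unit, the nearest named genes were Hsepi, Fsn and Klp10A, with distances of 0.06, 0.06 and 0.07 and differences of 0.70, 0.76 and 0.85.

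**Figure D3:**
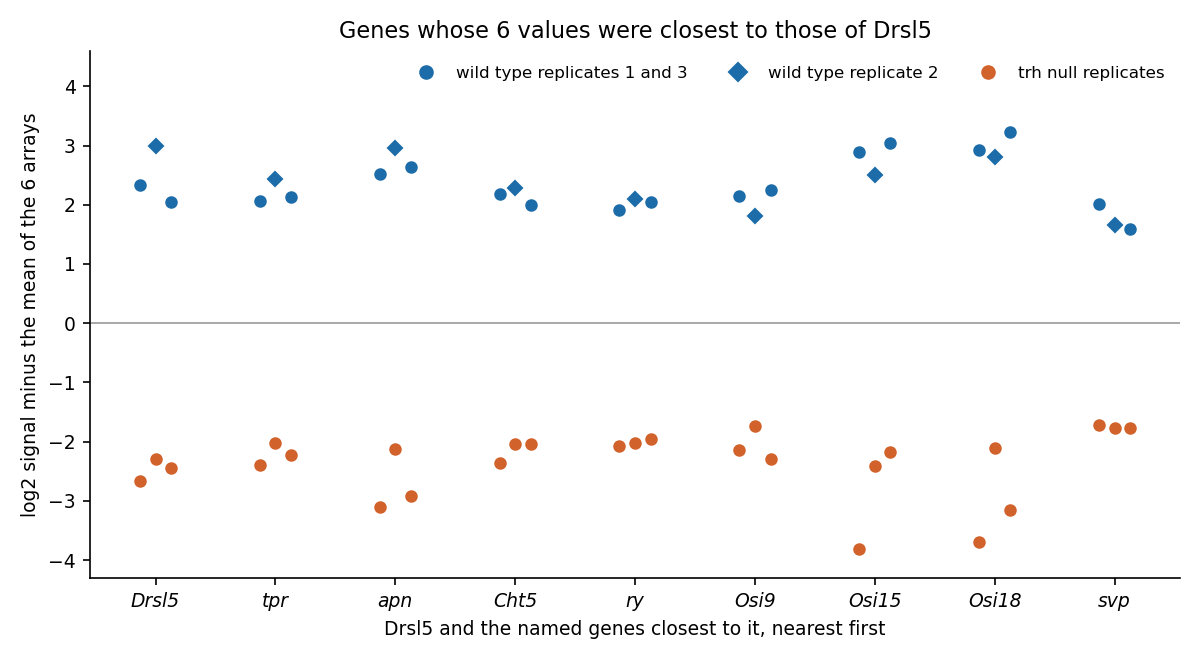
Log2 signal less the mean of the 6 arrays for Drsl5 and the 8 named genes closest to it, nearest first; points are arrays, with a diamond for wild type replicate 2. In Drsl5, tpr, apn, Cht5 and ry the diamond is the highest point, and in Osi9, Osi15 and Osi18 it is the lowest wild type point.

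Other immune peptide genes were examined to see whether the low signal of Drsl5 had a counterpart among them. The list held antimicrobial peptides, Bomanins (short peptides induced through Toll) and Turandots (humoral stress peptides). Of 22 measured genes 4 fell and 0 rose in limma's test in trh null embryos (at an unadjusted p under 0.05, 6 were lower and 1 higher), where 7.31% of all genes fell and 6.79% rose. The median log2 difference of the list was -0.12. BomS2, a Bomanin gene, had the largest difference, with signals of 7.43, 8.24 and 7.68 in wild type and 5.67, 5.71 and 5.49 in trh null embryos. No array of one genotype came near those of the other, and BomS2 fell by 2.16 (SE 0.21, limma adjusted p = 0.00232), or 4.46-fold.

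BomBc2, also a Bomanin gene, fell by 1.26, from 7.59 ± 0.64 to 6.34 ± 0.05 (SD, n = 3 arrays; SE 0.30, limma adjusted p = 0.0445). BomS5 fell by 0.73 (SE 0.15) and the Turandot gene TotF by 0.66 (SE 0.13), with limma adjusted p = 0.0284 and 0.0251. In each fit without 1 of the trh null arrays BomBc2, BomS5 and TotF no longer passed (limma adjusted p between 0.0889 and 0.159). Leaving out wild type replicate 3 ended the calls for BomBc2 (0.110) and TotF (0.0552), leaving out wild type replicate 1 that for BomS5 (0.0721), and quantile normalization that for BomBc2 (0.0539).

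Among the antimicrobial peptide genes Anp, Mtk, DptB, AttD, CecB and Def, none passed limma's test. Anp, which encodes andropin, an antibacterial peptide of the male ejaculatory duct, was 1.23 lower on the log2 scale in trh null embryos but varied in wild type (6.06 ± 0.83, SD, n = 3 arrays; SE 0.38, limma adjusted p = 0.0952). Mtk, which encodes the antifungal peptide metchnikowin, was 0.78 lower (SE 0.33, limma adjusted p = 0.191). DptB, AttD, CecB and Def had differences from -0.09 to 0.09. Their group means ran from 4.44 to 5.93, below the array medians of 6.16 to 6.22, where a log2 difference may understate a change. With the dimmest 40% of probe sets left out, 10 genes of the list remained, of which 3 fell. The list was written with 44 entries, of which 22 were measured. AttA, CecA1 and Dro were among those that were not. Wild type replicate 2 gave the highest wild type signal for 17 of the 22 genes, against 50.1% of all genes. Without it 7 genes of the list fell and 1 rose, the 4 called with all arrays among them, and BomS2 then fell by 1.93. Without trh null replicate 1, 2 or 3 only 1 gene passed, and without wild type replicate 3 it was 2.

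Of 44 measured genes of the Toll pathway 2 rose and 4 fell, a share of 13.6% called against 14.1% of all genes, with a median log2 difference of -0.07. Myd88, the adaptor of the Toll receptor, rose by 0.72 (SE 0.07, limma adjusted p = 0.00256), and Deaf1, a transcription factor gene, rose by 0.59 (SE 0.12, limma adjusted p = 0.0267). The serpin gene Spn88Ea and the serine protease homologue gene sphe, which acts upstream of Toll, fell by 0.91 each (SE 0.13 and 0.09, limma adjusted p = 0.00905 and 0.00241). Deaf1 did not pass in any fit without 1 of the trh null arrays (limma adjusted p between 0.0983 and 0.115), and Spn88Ea did not without trh null replicate 3 (0.0561). The counts rest on the brightest probe set of each gene. Dimmer probe sets of pip rose by 1.28 and fell by 0.57 (limma adjusted p = 0.00215 and 0.0200), and 1 of NT1 rose by 0.48 (0.0426). Both genes are in the list and were named after their values were seen.

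Of the core Toll genes, all named after their values were seen, the NF-kappaB gene Dif fell by 0.38 (SE 0.09, limma adjusted p = 0.0420). This call was lost without wild type replicate 1 or 3 or any trh null array (limma adjusted p between 0.0561 and 0.173), with quantile normalization (0.0553), with median centring (0.0588) and without the dimmest probe sets (0.0574). The other NF-kappaB gene of the pathway, dl, had a difference of -0.56, with all trh null arrays below all wild type arrays, and did not pass (limma adjusted p = 0.0877). The ligand gene spz had a difference of 0.10, the kinase gene pll -0.02 and the inhibitor gene cact 0.22, and none of these passed. The receptor gene Tl had 0.34 by its brightest probe set and -0.61 by the other, and neither passed. With trh null replicate 1, 2 or 3 left out, 3, 3 and 2 genes of the Toll list passed. Without wild type replicate 2 there were 14, of which 5 rose and 9 fell, the 6 calls made with all arrays among them.

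Of 27 measured genes of the Imd pathway 3 rose and 2 fell, a share of 18.5% called against 14.1% of all genes, and the median log2 difference was 0.06. The deubiquitinase gene scny rose by 0.97 (SE 0.07, limma adjusted p = 0.00106) and PGRP-SB1, a peptidoglycan recognition protein gene, by 0.82 (SE 0.11, limma adjusted p = 0.00698). PGRP-LF, which encodes a receptor-like inhibitor of the pathway, fell by 0.86 (SE 0.12, limma adjusted p = 0.00711), and ben, a ubiquitin-conjugating enzyme gene, by 0.69 (SE 0.15, limma adjusted p = 0.0332). In fits without 1 of the trh null arrays (limma adjusted p between 0.0772 and 0.114) or without wild type replicate 1 (0.0923) ben did not pass. The NF-kappaB gene Rel, chosen after its value was seen, had a difference of 0.22 and did not pass. For nub, a list gene chosen in the same way, the brightest probe set did not pass, but a dimmer one fell by 0.33 (limma adjusted p = 0.0362). The list had 3 calls without any 1 trh null array and 12 without wild type replicate 2.

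In the JAK-STAT list 0 of 10 measured genes passed limma's test, where 14.1% of all genes did, and with so few genes nothing is read from this count. At an unadjusted p under 0.05, 2 were higher and 0 lower. The median log2 difference was 0.27, against 0.00 over all genes. The list genes hop, upd3 and Socs36E were not measured. The largest differences were those of Su(var)2-10, a PIAS gene (0.74, SE 0.32), and of the phosphatase gene Ptp61F (0.54, SE 0.30). Without wild type replicate 2, 3 genes passed, and without wild type replicate 3 it was 2, Ptp61F among them (0.88, limma adjusted p = 0.0437).

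**Figure D4:**
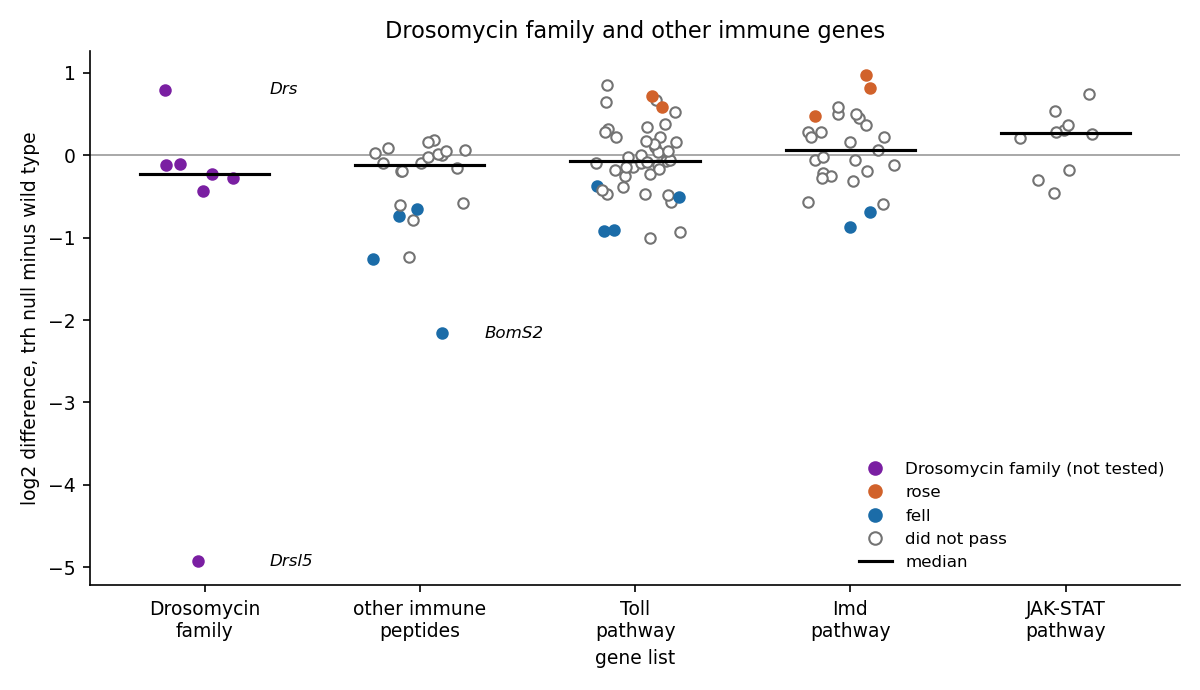
Log2 difference between trh null and wild type embryos for the Drosomycin family and 4 lists of immune genes; each point is a gene, lines are medians, and filled points outside the family passed limma's test. Drsl5 lies at -4.92 and BomS2 at -2.16, while by their brightest probe sets all genes of the Toll, Imd and JAK-STAT lists lie between -1.01 and 0.97.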

How the data were processed

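The tools RMA and Partek are named, with no version, per the submitters' processing notes. RMA usually corrects background, equalises quantiles and summarises probes, so a change shared by all transcripts would not show. The deposited values were used as log2 signals, with base 2 inferred from their range. Of 18952 probe sets 183 controls were left out. The platform annotation named 1 gene for 13647 of the other 18769, several for 402 (used for no gene) and none for 4720; 13544 of the 13647 matched the RefSeq table (Release 6 plus ISO1 MT) by gene identifier, which gave chromosome arms, gene order and synonyms. A model with a genotype term was fitted to all 18769 probe sets (limma 3.58.1, lmFit and eBayes, R 4.3.3), with Benjamini-Hochberg adjustment over them. The fit was tested on simulated data. Python 3.11.15 with pandas 2.3.3 and matplotlib 3.10.9 served for joins and figures.

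The members and gene lists were chosen with earlier results of these data known. List genes not named singly by a probe set were not analysed here. The genes named were every member, every neighbour of the cluster, up to 4 genes per list that passed (2 where none did; all of the peptide list), the 8 named genes nearest to Drsl5 and 3 nearest to Drs; others are marked or, for Anp, Mtk, DptB, AttD, CecB and Def, were chosen after their values were seen. The labels do not say that replicates were collected separately, so the spread behind each p-value may be technical, and 3 arrays per genotype limit the precision. Alternatives were other normalizations, priors, array weights, a replicate block, a filter on dim probe sets, averaged probe sets per gene, a stricter threshold and each array left out.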

Additional observations from a re-analysis of the deposited data

How the results depend on the processing

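The differences of the 7 members moved by less than 1 SD between replicates under quantile normalization, median centring, cyclic loess, another prior (trend and robust), the replicate block and each left-out array, and under array weights for all but Drsl1 (0.055 in place of -0.11). With 1 array left out in turn they ran from -5.13 to -4.66 for Drsl5, 0.73 to 0.85 for Drs and -0.49 to -0.38 for Drsl6. They ran from -0.35 to -0.14 for Drsl2, -0.33 to -0.14 for Drsl3, -0.21 to -0.04 for Drsl1 and -0.22 to 0.05 for Drsl4. Counts of calls depended on the arrays: 2219 probe sets passed with all arrays and 704 to 5001 with 1 left out. In that order, the ranges were 1 to 8 for immune peptide genes (4 with all), 2 to 14 for Toll (6), 3 to 12 for Imd (5), 0 to 3 for JAK-STAT (0) and 1 to 6 for the neighbours (2). Array weights, which gave wild type replicate 2 a weight of 0.14 and wild type replicate 1 one of 2.78, called 6003 probe sets, 11 immune peptide, 18 Toll, 12 Imd and 4 JAK-STAT genes and 8 neighbours. At an adjusted p under 0.01, 738 probe sets, 1 immune peptide, 3 Toll and 3 Imd genes and 1 neighbour passed. Median centring gave 1 JAK-STAT gene and 1 neighbour, and quantile normalization 1 neighbour. Same-numbered arrays did not deviate together (correlations of -0.37, -0.06 and -0.05). With 3 arrays per genotype these values cannot decide whether same-numbered samples were handled as pairs. With the replicate block 726 probe sets, 1 immune peptide, 2 Toll and 2 Imd genes and 1 neighbour passed. The cause of these shifts was not tested.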

Other observations

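With wild type replicate 2 left out, 4 immune peptide genes passed limma's test that did not pass with all arrays. Anp fell by 0.77 (SE 0.11), the Bomanin genes BomT3 and BomS4 by 0.41 (SE 0.07) and 0.29 (SE 0.07), and the Turandot gene TotE rose by 0.43 (SE 0.10) on the log2 scale, with adjusted p = 0.00413, 0.00762, 0.0318 and 0.0229. In the Toll list the neurotrophin-like ligand gene spz5 fell by 1.37, the kinase gene Gprk2 by 1.23 and the NF-kappaB gene dl by 0.75 in that fit, and wbl, which encodes an endoplasmic reticulum protein, rose by 1.11 (limma adjusted p = 0.000315, 0.000335, 0.00210 and 0.00475). These genes were chosen after their values were seen.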
